A study of Mus musculus with 22 samples.

Results

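Nocturnin (Noct) and 9 genes of the circadian clock, Arntl, Per1, Per2, Per3, Cry1, Nr1d1, Nr1d2, Dbp and Tef, were examined in mouse liver, 10 of the 18194 genes that the arrays name. Noct was selected on its own difference between Trim24-/- Rara+/- and Trim24-/- livers at 5 weeks, and the other 9 because they are the clock genes beside which such a difference can be set. All probe sets annotated to these symbols were taken, 22 with 1 symbol and 1 more that shares Noct with other symbols. The question followed here is whether that difference comes with the pattern of higher and lower clock genes that a shifted clock would give. The study profiled 22 livers, 1 array per mouse, from an intercross of double heterozygotes on a hybrid background (C57BL/6 with 129/Sv), and concerns the action of Trim24, a co-regulator of nuclear receptors, through the retinoic acid receptor Rara. There were 4 Trim24-/- Rara+/- mice at 5 weeks, which lack Trim24 and have 1 Rara allele deleted. Further groups were 4 Trim24-/- mice at 5 weeks, 4 wild-type (WT) mice at 5 weeks, 5 Trim24-/- mice at 14 weeks and 5 WT mice at 14 weeks. Trim24 was lost by gene disruption, and all mice with a deleted Rara allele also lacked Trim24, so the effect of Rara dosage with intact Trim24 cannot be read here. The sources used here do not give the hour at which livers were taken or the sex of the mice.

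The clock in liver cells is a loop of transcription and translation. CLOCK and ARNTL (BMAL1) bind E-boxes and switch on the Per and Cry genes, whose proteins in turn repress CLOCK and ARNTL, while NR1D1 and NR1D2 (REV-ERB alpha and beta) repress Arntl through ROR elements. DBP and TEF are output factors that bind D-boxes. In the livers of mice kept in light and dark, Nr1d1 and Dbp peak by day, the Per genes toward evening, Noct around the start of the night, Cry1 late in the night and Arntl around dawn, so that livers taken at different hours differ in a set pattern of higher and lower clock genes. Noct encodes a member of the deadenylase family of exonucleases whose protein is also known to remove a phosphate from NADP(H), and its RNA has one of the strong daily rhythms of liver.

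The clock motifs found near the start sites are shown because the arms of the loop act on each other through such letters. RefSeq promoter windows of GRCm38.p6, from 250 bases before to 50 after a start site, were at hand for 9 of the 10 genes, 12 windows in all, and 7 motifs were searched on both strands. The E-box CACGTG was in 4 of the 12 windows and in 7.15% of all 32851 windows of that length, the E-prime-box CACGTT in 2 and in 4.685%, the ROR element TAGGTCA in 1 and in 2.606%, and the D-box TTANGTAA in 1 and in 2.323%. The cyclic AMP element TGACGTCA (1.79% of all windows), a retinoic acid element made of AGNTCA repeats 5 bases apart (0.204%) and a heat-shock element of alternating GAA and TTC blocks (0.603%) were not found in the windows of these genes. A match describes the letters only. Motifs are in capitals in the following sequences, written 5′ to 3′ on the strand of the gene, and AACGTG is the E-prime-box read on the other strand.
Per1, position -166 from the start, chr11:69098772-69098799, plus strand: gcacccaagtcCACGTGcagggatgtgt
Cry1, position -60 from the start, chr10:85185098-85185125, minus strand: gtgccggtggtCACGTGgggtgcatgcc
Cry1, position -79 from the start, chr10:85185117-85185144, minus strand: cacacttcagaAACGTGaggtgccggtg
Tef, position -127 from the start, chr15:81802535-81802562, plus strand: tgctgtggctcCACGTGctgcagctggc
Tef, position -138 from another start, chr15:81811265-81811292, plus strand: acctggcccagCACGTGtctacatcgtt
Nr1d1, position -28 from the start, chr11:98775389-98775416, minus strand: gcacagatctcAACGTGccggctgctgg
Per3, position -205 from the start, chr4:151044852-151044881, minus strand: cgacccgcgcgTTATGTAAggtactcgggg
Per3, position -158 from the start, chr4:151044805-151044834, minus strand: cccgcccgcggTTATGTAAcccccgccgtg
Arntl, position 31 from the start, chr7:113207530-113207558, plus strand: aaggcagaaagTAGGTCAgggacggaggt
Cry1 thus had an E-box and an E-prime-box within 1 window, and Per3 had the D-box at both places. The windows of Noct, Nr1d2 and Dbp held none of the 7 motifs.

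Signals were linear intensities, and differences are given as log2(signal + 16), a scale that understates the fold of dim genes. Array medians were 12.6 to 16.1 in the younger mice and 19.7 to 25.9 in the older ones. Hepatocyte genes were bright in all groups, their 8 measured members summing to between 56799 and 90740 per array. Trim24 and Rara probes did not separate the genotypes (Trim24 was higher than in WT by 0.55 ± 0.22, SE, in Trim24-/- Rara+/- and by 0.23 ± 0.22 in Trim24-/- livers at 5 weeks, and by 0.43 ± 0.16 in Trim24-/- livers at 14 weeks, with adjusted p of 0.593, 0.766 and 0.457 in limma), and since the sources used here do not place them against the deleted sequence, they check nothing. Xist read 948 to 2169 across the 12 younger mice but 13.4 to 44.5 across the 10 older ones. Y-linked Eif2s3y read 0.35 to 6.59 in the younger and 245 to 344 in the older mice. These signals were thus of female type in all younger and of male type in all older mice. Age and sex-linked signal cannot be told apart, nor can any difference in the hour of harvest or any array run, which the labels do not give. WT animal 90 and Trim24-/- animal 6 correlated least with their groups at 5 weeks, at mean r of 0.953 and 0.957. Trim24-/- Rara+/- animals 54, 66 and 82 resembled each other closely, at r of 0.987 to 0.992, and so did Trim24-/- animals 1 and 8 at 5 weeks (r = 0.988). Animals at 5 weeks are numbered as in their labels. The limma p-values set a difference against the spread between animals within the groups of a fit. The number of arrays limits the precision.

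Noct was highest in Trim24-/- Rara+/- livers and lowest in Trim24-/- livers at 5 weeks. Its signal was 818, 826, 903 and 864 in the 4 Trim24-/- Rara+/- livers (853 ± 38.8, SD, n = 4). It was 262, 468, 457 and 391 in Trim24-/- livers (394 ± 94.8, n = 4) and 595, 691, 779 and 573 in WT livers (659 ± 94.8, n = 4). No animal of any of these 3 groups overlapped with an animal of another group, and the Trim24-/- Rara+/- animals also lay closest together. On the log2 scale Noct was 1.11 ± 0.16 (SE) higher in Trim24-/- Rara+/- than in Trim24-/- livers, a 2.17-fold difference with a 95% interval of 1.69 to 2.77. It was 0.74 ± 0.16 lower in Trim24-/- than in WT livers (difference -0.74, 95% interval -1.10 to -0.39), and 0.37 ± 0.16 higher in Trim24-/- Rara+/- than in WT livers (0.02 to 0.73). These 3 differences describe the values that selected Noct, or share arrays with them, and carry no test.

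**Figure D1:**
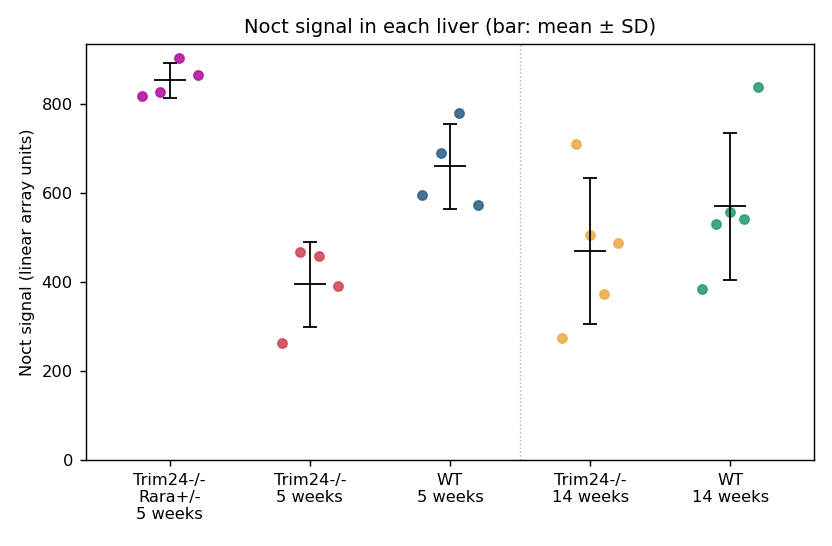
Noct signal (vertical axis, linear array units) in each liver by group, with black bars for the mean and SD. At 5 weeks the 3 genotypes do not overlap, with Trim24-/- Rara+/- at 818 to 903, Trim24-/- at 262 to 468 and WT at 573 to 779, whereas the 2 groups at 14 weeks overlap.

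The size of the Noct difference was much the same without the arrays that stood apart. Without WT animal 90 and Trim24-/- animal 6 it was 1.20 between Trim24-/- Rara+/- and Trim24-/- livers and -0.89 between Trim24-/- and WT livers. The WT animal plays no part in the size of the first of these differences. With animals 54, 66 and 82 averaged as 1 replicate it was 1.14, and with Trim24-/- animals 1 and 8 averaged it was 1.07. A further probe set that lists Noct among several symbols, and so names no gene, averaged 920 ± 125 in Trim24-/- Rara+/- livers, 980 ± 346 in Trim24-/- livers and 790 ± 290 in WT livers (SD, n = 4 each). It differed by -0.02 ± 0.29 (SE) between Trim24-/- Rara+/- and Trim24-/- livers, unlike the probe set of Noct alone. The cause of this disagreement was not tested.

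At 14 weeks, on arrays that played no part in the choice of Noct, no such separation appeared. Noct read 486, 374, 505, 709 and 273 in Trim24-/- livers (470 ± 163, SD, n = 5) and 837, 557, 541, 530 and 384 in WT livers (570 ± 165, n = 5). The groups overlapped, and the lowest of all 10 animals was a Trim24-/- animal and the highest a WT animal. The difference was -0.29 ± 0.25 (SE) with a 95% interval of -0.83 to 0.24 (limma, adjusted p = 0.815). That interval includes both no change and the -0.74 seen at 5 weeks. Between the ages, which also differed in sex-linked signal, the Trim24-/- effect on Noct differed by 0.45 ± 0.31, with an interval of -0.20 to 1.10. Ordered by mean signal, the groups ran from Trim24-/- at 5 weeks through Trim24-/- at 14 weeks, WT at 14 weeks and WT at 5 weeks to Trim24-/- Rara+/- at 5 weeks. Among neighbours in that order, only WT and Trim24-/- Rara+/- at 5 weeks did not overlap.

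Between Trim24-/- Rara+/- and Trim24-/- livers at 5 weeks the other clock genes differed less than Noct, which was chosen for its difference there. Nothing is read from that order. In that comparison, which selected Noct, 26 of 18194 genes (0.143%) passed limma at an adjusted p under 0.05 and 1540 (8.46%) had groups that did not overlap. On the brightest probe set of each of the 10 genes, 8 were higher and 2 lower, with a median difference of 0.25 against -0.01 over all genes. On these probe sets Noct and Per2 had groups that did not overlap, and so had another probe set of Tef. Nothing is read from these counts, since the comparison chose the set.

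Per2, a repressor of the loop, also separated these groups on its brightest probe set. It read 176, 221, 194 and 230 in Trim24-/- Rara+/- livers, 144, 140, 168 and 73.3 in Trim24-/- livers and 240, 220, 172 and 153 in WT livers. All 4 Trim24-/- Rara+/- animals were above all 4 Trim24-/- animals, while WT overlapped with both. The difference was 0.63 ± 0.21 (SE) between Trim24-/- Rara+/- and Trim24-/- livers and 0.07 ± 0.21 between Trim24-/- Rara+/- and WT livers. The 2 other Per2 probe sets were dim, with group means from 32.8 to 55.0, and differed by 0.10 and 0.17 between Trim24-/- Rara+/- and Trim24-/- livers, so that the mean over all Per2 probe sets differed by 0.30.

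Per1 and Per3, repressors with Per2, differed less. Per1 averaged 102 ± 18.4 in Trim24-/- Rara+/- livers, 84.3 ± 16.3 in Trim24-/- livers and 96.8 ± 15.5 in WT livers (SD, n = 4 each), and Trim24-/- Rara+/- exceeded Trim24-/- by 0.23 ± 0.15 (SE). Per3 averaged 113 ± 9.52 in Trim24-/- Rara+/- livers, 111 ± 32.1 in Trim24-/- livers and 109 ± 23.1 in WT livers. The difference between the mutants was 0.05 ± 0.18, and its sign turned to -0.07 without Trim24-/- animal 6. The groups overlapped for both genes. Cry1, the partner of the PER proteins, read 87.2, 105, 117 and 55.3 in Trim24-/- Rara+/- livers, 70.6, 80.1, 54.6 and 27.2 in Trim24-/- livers and 82.6, 74.4, 143 and 64.03 in WT livers. Its difference of 0.55 ± 0.28 between Trim24-/- Rara+/- and Trim24-/- livers came with overlapping groups and a 95% interval of -0.05 to 1.16.

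Nr1d1, a repressor of Arntl whose RNA peaks by day, ran opposite to Noct. It read 47.6, 52.1, 84.5 and 40.7 in Trim24-/- Rara+/- livers, 127, 73.9, 71.6 and 128 in Trim24-/- livers and 75.0, 81.7, 51.8 and 48.2 in WT livers. Animal 73 of the Trim24-/- Rara+/- group overlapped with the Trim24-/- animals, and the difference was -0.68 ± 0.22 (SE, 95% interval -1.17 to -0.19). Its relative Nr1d2 averaged 1573 ± 355 in Trim24-/- Rara+/- livers, 1457 ± 126 in Trim24-/- livers and 1561 ± 221 in WT livers (SD, n = 4 each), with a difference of 0.09 ± 0.15 between the mutants. Arntl itself was dim, at 26.7 ± 8.89 in Trim24-/- Rara+/- livers, 19.4 ± 5.51 in Trim24-/- livers and 22.4 ± 4.62 in WT livers, near the 16 added before taking logs, which compresses differences of this gene.

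The output factors showed wide spread. Dbp read 1695, 1704, 1736 and 1510 in Trim24-/- Rara+/- livers, 2100, 1061, 2553 and 1514 in Trim24-/- livers and 2412, 1825, 1396 and 714 in WT livers. The Trim24-/- Rara+/- animals lay within the range of the Trim24-/- animals. The difference was -0.05 ± 0.33 (SE), or -0.27 without Trim24-/- animal 6, the lowest Dbp animal of its group. Tef read 1025, 1216, 935 and 874 in Trim24-/- Rara+/- livers, 912, 536, 954 and 661 in Trim24-/- livers and 882, 873, 1012 and 570 in WT livers. Its difference of 0.42 ± 0.21 came with overlapping groups and was 0.27 without the same animal. A further Tef probe set read 165, 172, 152 and 141 in Trim24-/- Rara+/- livers, 120, 103, 124 and 75.1 in Trim24-/- livers and 133, 184, 133 and 81.9 in WT livers. On this probe set all Trim24-/- Rara+/- animals were above all Trim24-/- animals, with a difference of 0.53 ± 0.20, while WT overlapped with both.

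**Figure D2:**
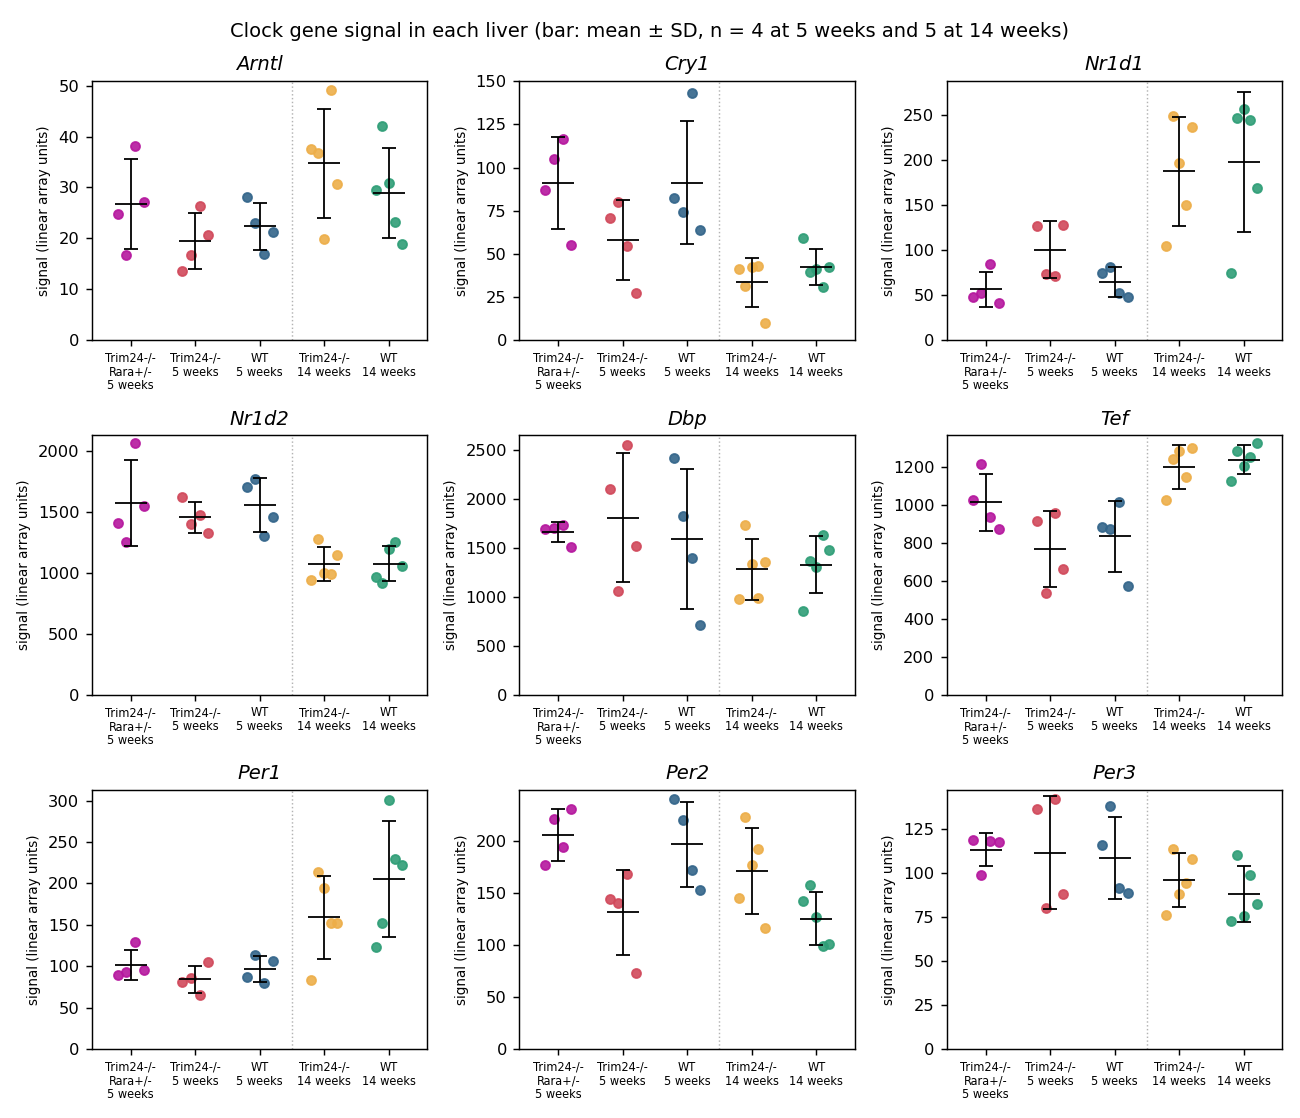
Signal of the other 9 clock genes (vertical axes from 0, linear array units) in each liver by group, with black bars for the mean and SD. Per2 in Trim24-/- Rara+/- livers lies above all Trim24-/- livers at 5 weeks, Nr1d1 lies lower with 1 animal overlapping, and Dbp ranges from 714 to 2553 within the groups at 5 weeks.

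Between Trim24-/- and WT livers at 5 weeks, none of the other 9 clock genes passed the test. Limma called 109 of 18194 genes (0.599%), and 1004 genes (5.52%) had groups that did not overlap. The largest differences among the 9 were those of Per2, at -0.56 ± 0.21 (SE, adjusted p = 0.336), Cry1, at -0.54 ± 0.28 (adjusted p = 0.516), and Nr1d1, at 0.52 ± 0.22 (adjusted p = 0.426). Per2 and Nr1d1 had an unadjusted p under 0.05 in limma, as had a dim further probe set of Per3 (0.57 ± 0.24, adjusted p = 0.507 over all probe sets). The remaining 6 lay between -0.17 for Per1 and 0.24 for Dbp, with adjusted p of 0.737 and 0.850 for these. The interval for Dbp, -0.47 to 0.95, leaves room for changes in either direction. Noct and Per2 were thus both low in Trim24-/- livers, where Nr1d1 was high, but of the brightest probe sets only that of Noct had groups that did not overlap. The comparisons of Trim24-/- Rara+/- with Trim24-/- and of Trim24-/- with WT share the 4 Trim24-/- arrays, so these opposite signs are not independent.

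Between Trim24-/- Rara+/- and WT livers the other 9 clock genes were close to each other, and none passed the test. Limma called 10 of 18194 genes (0.055%), and 840 (4.62%) had groups that did not overlap. The 9 differences lay between -0.16 ± 0.22 (SE) for Nr1d1 (adjusted p = 0.918) and 0.29 ± 0.21 for Tef (adjusted p = 0.817), and none of the 9 had an unadjusted p under 0.05 in limma. Their 95% intervals ran to -0.65 for Nr1d1 and to 0.90 for Dbp, so modest differences could have been missed. Of the brightest probe sets, only that of Noct had groups that did not overlap in this comparison.

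**Figure D3:**
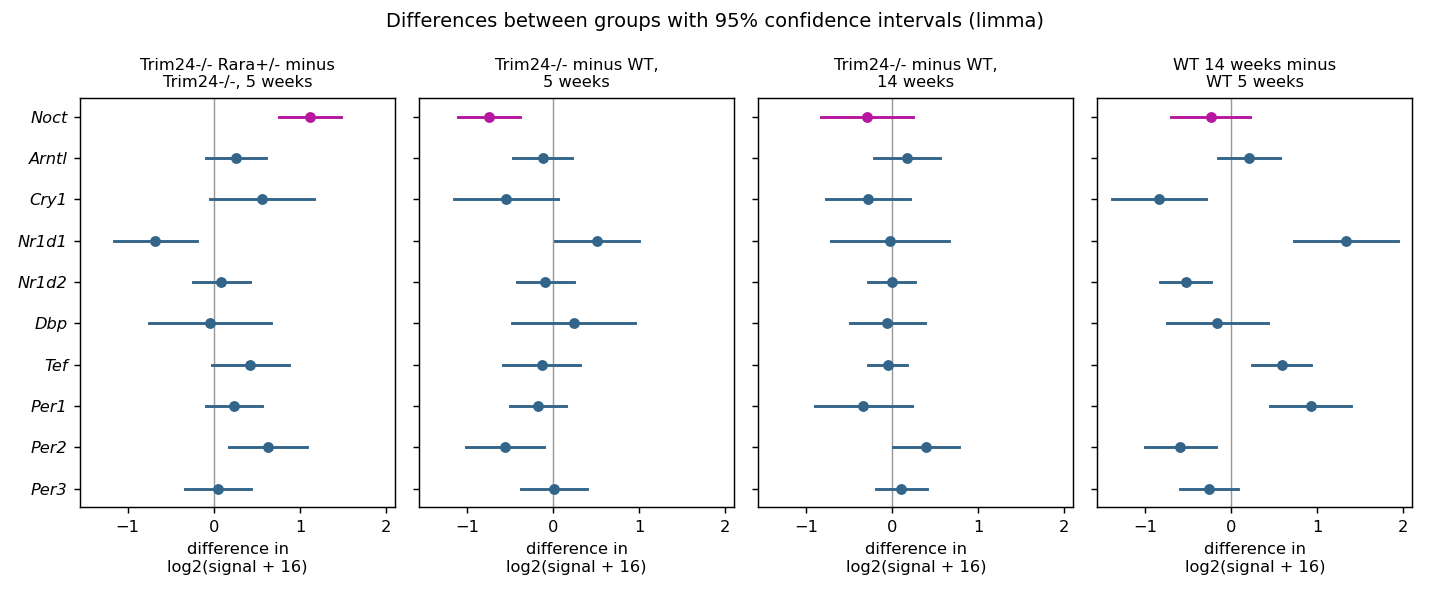
Differences in log2(signal + 16) (horizontal axes) of the 10 genes in 4 comparisons, as points with 95% intervals from limma and with Noct in magenta. Noct is at 1.11 between Trim24-/- Rara+/- and Trim24-/- livers and at -0.74 between Trim24-/- and WT livers at 5 weeks, while most intervals of the other genes cross 0 in the 3 genotype comparisons.

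At 14 weeks none of the 10 genes differed between Trim24-/- and WT livers by the test. Limma called 44 of 18194 genes (0.242%), and 324 (1.78%) had groups that did not overlap. Per2 was highest at 0.39 ± 0.18 (SE, adjusted p = 0.597), with 116, 192, 177, 223 and 145 in Trim24-/- livers and 101, 126, 98.6, 158 and 142 in WT livers, and of the brightest probe sets it alone had an unadjusted p under 0.05 in limma. Arntl had opposite signs on its probe sets, at 0.17 ± 0.18 on the brighter one and -0.63 ± 0.23 on the other (adjusted p = 0.569 over all probe sets), which had such a p too but read between 3.06 and 32.0 in all 10 livers. Per1 was lowest at -0.33 ± 0.26 (adjusted p = 0.799). Dbp, Tef, Nr1d1 and Nr1d2 differed by between -0.05 and -0.00, and the 95% interval for Tef, -0.27 to 0.18, was narrow. The difference between ages of the Trim24-/- effect was 0.95 ± 0.28 for Per2 (limma, adjusted p = 0.438), which did not pass over all genes, and 0.35 over the mean of its probe sets, and limma called 6 of 18194 genes (0.033%) and none of these 10 for that difference.

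The variation within groups was used to ask whether Noct moved with the clock genes from animal to animal. Deviations from group means were correlated between Noct and each of the other 9 genes, separately at each age, with p from 100000 permutations within groups adjusted over 9 genes. At 5 weeks, over 12 animals, no relation passed, with Pearson r from -0.39 for Nr1d1 to 0.28 for Arntl and an adjusted permutation p of 0.961 for all. Per2, whose group means resembled those of Noct, had r = 0.02 with it within groups (Spearman rho 0.11). Taken group by group, r with Noct ran from -0.34 to 0.23 for Dbp, from -0.66 to 0.77 for Tef and from -0.39 to 0.92 for Per1. With so few animals, a pooled r near 0 does not show that there was no relation. Noct of WT animal 90 and Trim24-/- animal 6, which had the lowest Dbp, Tef and Per3 of their groups at 5 weeks, was the lowest of its group in the WT animal and the highest in the Trim24-/- animal.

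At 14 weeks, over 10 animals, Noct moved with Dbp (r = 0.844, Spearman rho 0.830, permutation p = 0.00794, adjusted 0.0357), Tef (r = 0.838, rho 0.830, permutation p = 0.00741, adjusted 0.0357) and Per1 (r = 0.767, rho 0.782, permutation p = 0.0166, adjusted 0.0499). The adjusted permutation p of the rho was 0.0479 for each of the 3. The WT animal and the Trim24-/- animal lowest in Noct in their groups were also lowest in Dbp, Tef, Per1 and Nr1d1. Each of their arrays also correlated least within its own group, at mean r of 0.9570 for the WT animal and 0.9645 for the Trim24-/- animal. Without these 2 animals r was 0.717 with Dbp (permutation p = 0.0764), 0.576 with Tef (permutation p = 0.184) and 0.40 with Per1 (permutation p = 0.278), so those with Tef and Per1 fell well below their values over all 10 animals, while that with Dbp kept most of its size without passing the test. Nr1d1 had r = 0.657 (adjusted permutation p = 0.122) and 0.06 without them, and Cry1 and Arntl had r of -0.34 and -0.42 (adjusted permutation p = 0.479 and 0.347). Whether the relations differ between ages was not tested. Among the other 9 genes, 36 pairs were examined at each age as a choice made after the values were seen, and none passed the adjustment, with 4 pairs at 5 weeks and 9 at 14 weeks at an unadjusted permutation p under 0.05. Dbp and Tef had r = 0.810 at 5 weeks, or 0.493 without WT animal 90 and Trim24-/- animal 6, and r = 0.766 at 14 weeks.

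**Figure D4:**
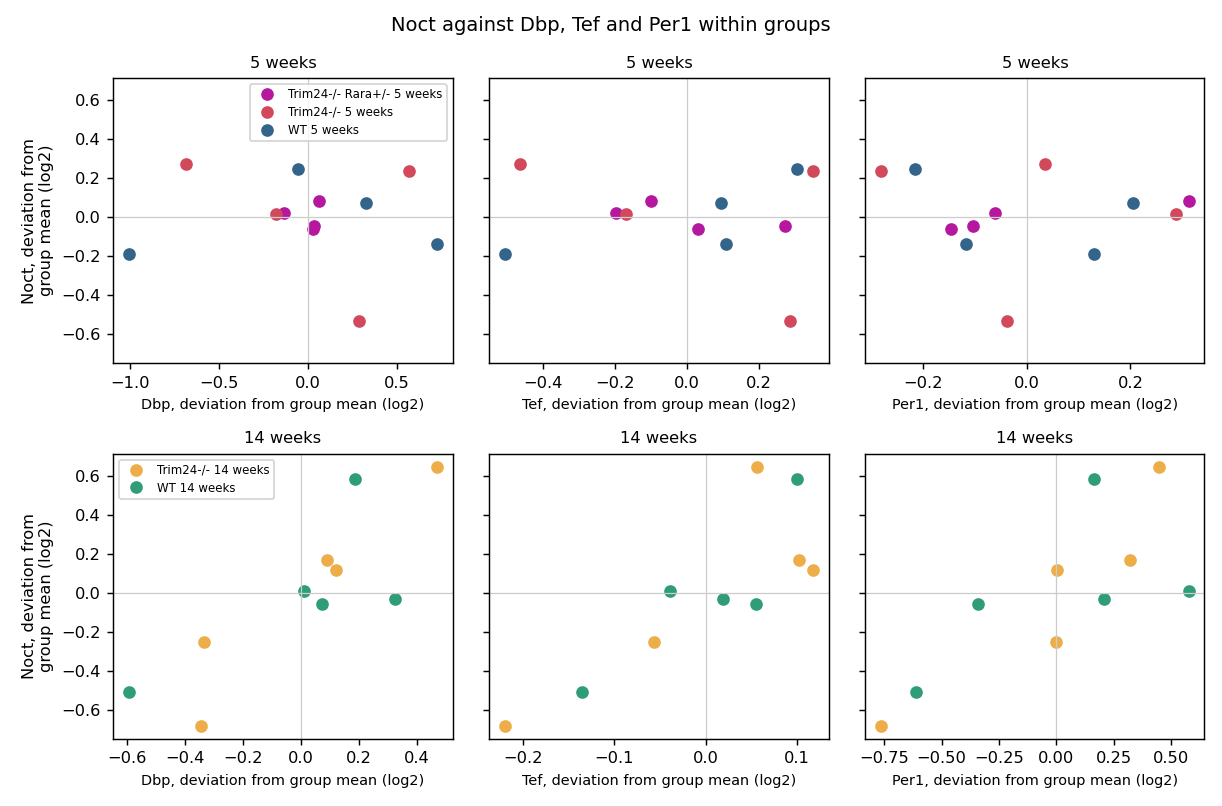
Deviation of Noct from its group mean (vertical axes, log2) against that of Dbp, Tef and Per1 (horizontal axes, log2), 1 point per animal, at 5 weeks (top) and 14 weeks (bottom). No relation passed the test at 5 weeks, with r of -0.09 for Dbp and Per1 and -0.08 for Tef, whereas at 14 weeks r is 0.767 to 0.844, with 1 WT and 1 Trim24-/- animal at the low end.

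Between WT livers at 14 and at 5 weeks, which also differed in sex-linked signal, 6 of the 10 genes changed, and Noct did not pass. The hour of harvest is not given for either age, and any difference in it cannot be told apart from age in these values. Limma called 5147 of 18194 genes (28.3%) here and 3466 (19.1%) had groups that did not overlap, and the median gene was 0.13 higher at 14 weeks, so a share of 6 in 10 stands beside a broad shift of the arrays. Noct differed by -0.24 ± 0.22 (SE, adjusted p = 0.448), and by -0.48 (adjusted p = 0.131) with each array centred on its median. Nr1d1 rose most, at 198 ± 77.7 in WT livers at 14 weeks and 64.2 ± 16.6 in WT livers at 5 weeks (SD, n = 5 and 4), a difference of 1.33 ± 0.29 (limma, adjusted p = 0.00204), and Per1 rose by 0.92 ± 0.23 (adjusted p = 0.00439). Tef also rose, by 0.59 ± 0.16 (adjusted p = 0.0105), but not with centred arrays (0.34, adjusted p = 0.166). Cry1 fell, at 42.4 ± 10.3 against 91.1 ± 35.7 in WT livers at 5 weeks, a difference of -0.84 ± 0.26 (adjusted p = 0.0213). Nr1d2 fell by 0.53 ± 0.14 (adjusted p = 0.00809) and Per2 by 0.59 ± 0.20 (adjusted p = 0.0313). The changes of Nr1d2, Per2 and Tef did not hold over the mean of all probe sets of each gene (-0.05, -0.03 and 0.27). Per3 differed by -0.26 (adjusted p = 0.240), or by -0.50 with centred arrays (adjusted p = 0.0335). The further probe set of Nr1d2 differed by 0.43 and those of Per2 by 0.18 and 0.31, opposite in sign to the brightest ones.

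Wider lists of clock genes, which include 9 of the 10 genes above, showed the same absence of calls by limma in the genotype comparisons. As a background for counts at an unadjusted p under 0.05, such a p was reached by 11.5% of all genes between Trim24-/- Rara+/- and Trim24-/- livers, 10.8% between Trim24-/- and WT livers at 5 weeks, 7.44% between Trim24-/- Rara+/- and WT livers and 8.23% at 14 weeks. Of 5 measured genes that peak from night to morning, 3 were higher and 2 lower in Trim24-/- Rara+/- than in Trim24-/- livers, with a median of 0.14. Of 11 that peak from day to evening, 8 were higher and 3 lower, with a median of 0.21 against -0.01 over all genes, and 2 of the higher and 1 of the lower had an unadjusted p under 0.05. None of these was called in any of the genotype comparisons, and the difference between the lists was not tested. The list of 13 clock-controlled liver outputs had 11 higher and 2 lower, with a median of 0.29, 5 of them higher at an unadjusted p under 0.05, while 12 of its 13 genes lay below 0 between Trim24-/- and WT livers at 5 weeks (median -0.17), 1 at such a p. Among these, Elovl3, an enzyme that elongates fatty acids, was 1.21 ± 0.22 (SE) higher in Trim24-/- Rara+/- than in Trim24-/- livers and 1.13 ± 0.22 higher than in WT livers (limma, adjusted p = 0.0568 and 0.106). Elovl3 is named here after its value was seen.

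Genes that answer to glucocorticoid, temperature and other inputs of the liver clock were counted in the same way. All 9 glucocorticoid-responsive genes were higher in Trim24-/- Rara+/- than in Trim24-/- livers (median 0.80) and than in WT livers (median 0.53). All 9 were lower in Trim24-/- than in WT livers at 14 weeks (median -0.65). Limma called no member in any of these 3 comparisons, with 4, 2 and 2 at an unadjusted p under 0.05. Between Trim24-/- and WT livers at 5 weeks, 3 were higher and 6 lower (median -0.15), with none called or at such a p. Their mean log2 level ran from 10.2 to 10.7 in Trim24-/- Rara+/- livers, from 9.22 to 10.3 in Trim24-/- livers and from 9.36 to 10.2 in WT livers at 5 weeks. Fkbp5, a chaperone partner of the glucocorticoid receptor named here after its value was seen, differed by 1.23 ± 0.32 (SE) between Trim24-/- Rara+/- and Trim24-/- livers. Of 10 temperature and heat-shock genes, 8 were higher and 2 lower in Trim24-/- Rara+/- than in Trim24-/- livers (median 0.44). None was called, with 4 higher and 1 lower at an unadjusted p under 0.05 in limma. Cirbp, which encodes a cold-inducible RNA-binding protein and is named here after its value was seen, was 1.30 lower (difference -1.30 ± 0.32). Of 16 immediate early genes, 14 were lower in that comparison (median -0.27), and all 16 were higher between Trim24-/- and WT livers at 5 weeks (median 0.36). None was called in either, with 3 and 4 at an unadjusted p under 0.05 in limma. The glucocorticoid-responsive and immediate early lists overlap in membership. Between Trim24-/- Rara+/- and Trim24-/- livers, 0.23 was both the lowest value of the former and the highest of the latter. The part of these lists in the Noct difference was not tested.

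**Figure D5:**
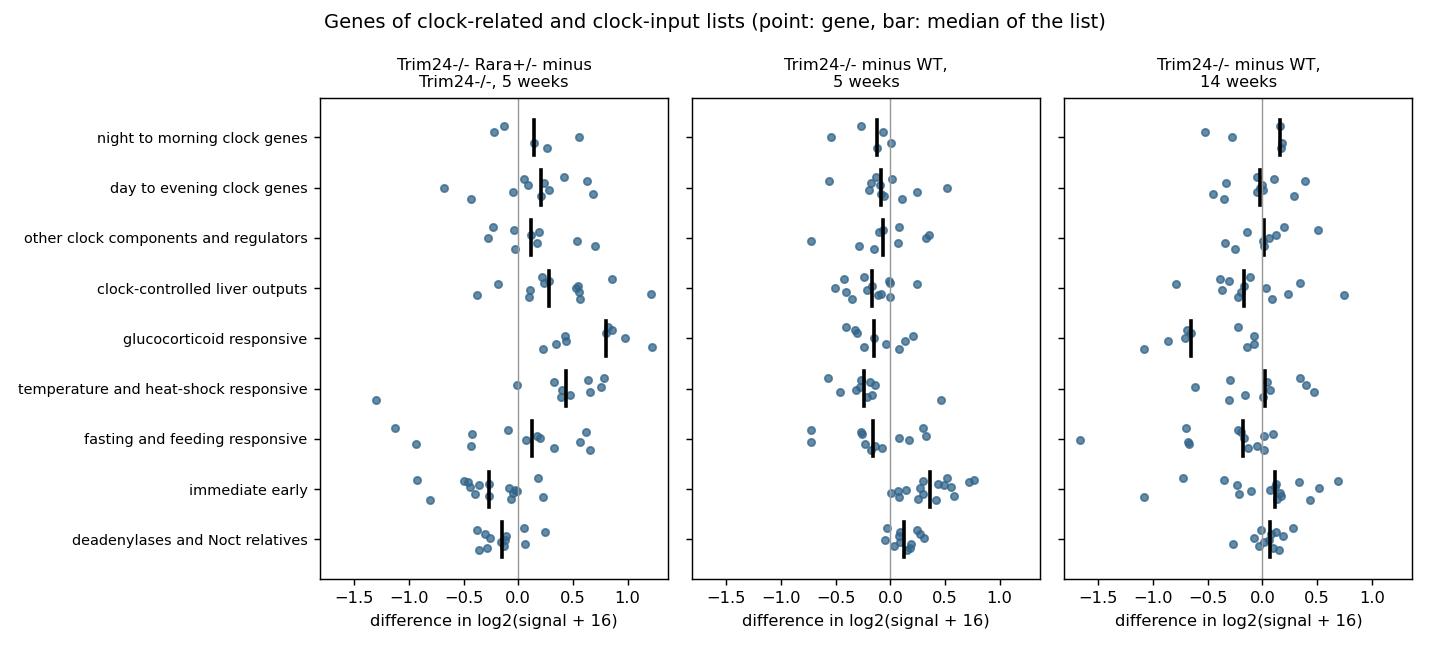
Differences in log2(signal + 16) (horizontal axes) of the genes of 9 lists (rows) in 3 comparisons, with a point per gene and a black bar at the median of each list. The glucocorticoid-responsive genes are all above 0 between Trim24-/- Rara+/- and Trim24-/- livers (median 0.80). They are all below 0 between Trim24-/- and WT livers at 14 weeks (median -0.65), but lie on both sides of 0 at 5 weeks (median -0.15). The night-to-morning and day-to-evening clock lists have medians between -0.12 and 0.21.

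Relatives of Noct and of its enzyme activity were counted next. Of 12 measured deadenylases and Noct relatives, 3 were higher and 9 lower in Trim24-/- Rara+/- than in Trim24-/- livers (median -0.14). Between Trim24-/- and WT livers at 5 weeks, 10 lay above 0 and 2 below (median 0.12), and limma called none in either comparison, with 3 and 1 at an unadjusted p under 0.05. Of 6 kinases and enzymes that make NADP(H), 5 were higher and 1 lower in Trim24-/- Rara+/- than in Trim24-/- livers, also without a call. Markers of other cell types were counted beside the Noct comparison. All 8 endothelial markers were higher in Trim24-/- Rara+/- than in Trim24-/- livers (median 0.29), with summed signals of 1757 to 2039 in Trim24-/- Rara+/- and 1172 to 1890 in Trim24-/- livers. All 8 T, NK and B cell markers were lower (median -0.20), with sums of 48.3 to 106 in Trim24-/- Rara+/- and 75.7 to 192 in Trim24-/- livers. Of these markers, 5 (Cd3g, Cd8a, Cd4, Nkg7 and Cd79a) were below 16 on every Trim24-/- Rara+/- array, and Cd4 also on every Trim24-/- array. Their differences are thus poorly resolved. Of 8 stellate markers 4 were higher and 4 lower, of 5 cholangiocyte markers 1 and 4, and of 8 hepatocyte markers 3 and 5. Of 14 macrophage and Kupffer cell markers, 4 were higher and 10 lower (median -0.15). Their sums were 6443 to 10475 in Trim24-/- Rara+/- and 6588 to 13300 in Trim24-/- livers. Between Trim24-/- and WT livers at 5 weeks 12 were higher (median 0.37), 4 at an unadjusted p under 0.05 in limma, beside 10.8% of all genes. Mpeg1 was called there, beside 0.599% of all genes. At 14 weeks 13 were higher (median 0.45), none called and 10 at such a p, beside 8.23% of all genes. In whole liver, fewer cells of a type and less RNA per cell cannot be told apart, and the part of these markers in the Noct difference was not tested.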

How the data were processed

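Affymetrix arrays were hybridised with 100 ng of liver RNA per mouse after 2 rounds of amplification, per the labels' protocols. The authors deposited 1 table of intensity, linear and not logged, with 45101 probe sets in 22 arrays. The trimmed mean was the same on every array, so values had been scaled before deposit, and the software was not given in the sources used here. Symbols came from the platform annotation, where 34958 probe sets have 1 symbol, 932 several and 9211 are not listed. The brightest probe set stood for each of 18194 genes. Signals plus 16 were logged to base 2 and fitted in limma 3.58.1 (R 4.3.3, lmFit then eBayes). Genes were called where p, adjusted over the 18194 genes by Benjamini and Hochberg, was under 0.05. The younger mice shared a fit of 12 arrays, the older mice one of 10, and contrasts of age used all 22. Correlations used deviations from group means and 100000 permutations within groups (scipy 1.17.1, numpy 2.4.6, Python 3.11.15). The fits and permutations were tested on simulated data. Promoter sequences are RefSeq's for GRCm38.p6.

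Groups came from the labels, and every array was used. Named genes were the 10 members with all their probe sets, Trim24 and Rara, up to 4 called members of each list per comparison, and the 5 genes whose deviations follow Noct most. In the genotype comparisons Elovl3, Fkbp5 and Cirbp were named outside this rule, after their values were seen. The members and gene lists were chosen with earlier results of these data known. Alternatives were pseudocounts of 1 and 64, quantile normalisation, centred arrays, only brighter genes, other uses of probe sets, a variance trend, array weights, fits on fewer or more arrays and dropping each array in turn. Averaging or leaving out arrays that stood apart was chosen after the values were seen.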

Additional observations from a re-analysis of the deposited data

Results flagged for a closer look

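Of 50 sets of values, 10 genes in 5 groups, 3 had 1 animal far from the others by the ratio of its gap to the range of the group, and chance flags about 1 in 20 groups. Per3 read 99.1 in Trim24-/- Rara+/- animal 66 and 117 to 119 in the other 3 animals of that group (ratio 0.9306). Dbp read 1510 in Trim24-/- Rara+/- animal 82, against 1695 to 1736 in the others (ratio 0.8305). Cry1 read 9.77 in 1 Trim24-/- animal at 14 weeks, below the pseudocount, against 31.4 to 43.0 in the others (ratio 0.7348). No Noct value was flagged.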

How the results depend on the processing

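Noct kept its direction in each comparison under every alternative, from 0.94 to 1.20 between Trim24-/- Rara+/- and Trim24-/- livers, from -0.89 to -0.57 between Trim24-/- and WT livers at 5 weeks and from -0.46 to -0.12 at 14 weeks. Both ranges at 5 weeks come from values that selected Noct, or share arrays with them. They describe size only and lend the difference no support. No paired analysis was possible because animal numbers are not shared between groups.

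Counts of called genes moved, and the cause was not tested. Between Trim24-/- Rara+/- and Trim24-/- livers the 26 calls became 0 with a pseudocount of 1, 55 with 64, 106 among brighter genes, 52 with a variance trend, 325 with array weights, 5 with only the arrays compared, 101 with all 22 arrays, 51 without WT animal 90 and Trim24-/- animal 6, 0 with animals 54, 66 and 82 averaged and 5 with animals 1 and 8 averaged, and 0 to 101 with 1 array left out, with 0 without Trim24-/- animal 8 or Trim24-/- Rara+/- animals 54, 66 or 82, and 101 without Trim24-/- animal 37. Between Trim24-/- and WT livers at 5 weeks the 109 calls became 34 with a pseudocount of 1, 19 with only the arrays compared, 28 and 21 with the averaged animals, and 12 to 137 with 1 array left out. Between Trim24-/- Rara+/- and WT livers the 10 calls became 17 among brighter genes, 18 with array weights, 23 with only the arrays compared, 31 with all 22 arrays, 28 without animals 90 and 6, 5 and 6 with the averaged animals, and 6 to 22 with 1 array left out. At 14 weeks the 44 calls became 28 with a pseudocount of 1, 94 with all 22 arrays, and 28 to 39 with 1 array left out. Between WT ages the 5147 calls became 3045 among brighter genes and 10517 over every probe set. The 6 calls of the difference between ages became 5 to 11 with 1 array left out. Per2 lost its call between WT ages without either of 2 WT animals at 5 weeks (2 and 44) or of 2 at 14 weeks (-0.53 to -0.49), Cry1 without WT animal 45 (-0.63) or with a pseudocount of 1 (-1.05, adjusted p = 0.0567), Nr1d2 with quantile normalisation (-0.37, adjusted p = 0.0754) and Tef without WT animal 90 (0.42). Between 49.9% and 54.4% of probe sets per array read below the pseudocount at 5 weeks, so dim genes such as Arntl are poorly resolved.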

Other observations

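Over all 22 animals, the genes whose deviations from group means followed those of Noct most were Scrn2 (r = 0.763), P4ha1 (r = 0.751), Yod1 (r = 0.745), Errfi1 (r = 0.740) and Pcmt1 (r = 0.736), among 8333 genes with a mean log2 level of at least 6. P4ha1 encodes a subunit of the enzyme that hydroxylates collagen prolines, Yod1 a deubiquitinase and Errfi1 a feedback inhibitor of the EGF receptor. Of the clock genes, Per1 came nearest, at rank 124 (r = 0.576), followed by Nr1d1 at rank 802 and Dbp at rank 952, while Cry1 was at rank 5122. Arntl was too dim to be ranked, and r at the 99th percentile of all genes was 0.601. These values are a description across animals that share their arrays. Yod1 and Errfi1 also kept r of 0.747 and 0.805 at 5 weeks and 0.744 and 0.763 at 14 weeks, while Scrn2, P4ha1 and Pcmt1 had lower r at 5 weeks than at 14 weeks. Between Trim24-/- Rara+/- and Trim24-/- livers the 5 genes differed by 0.10 ± 0.10 (SE) for Scrn2, 0.43 ± 0.11 for P4ha1, 0.68 ± 0.16 for Yod1, 0.47 ± 0.16 for Errfi1 and -0.00 ± 0.11 for Pcmt1.

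Between WT livers at 14 and at 5 weeks, limma called 6 of 13 clock-controlled outputs, 2 higher and 4 lower, and 4 of 9 other clock components, 3 higher and 1 lower, beside 28.3% of all genes. Elovl3 was 3.50 ± 0.29 (SE) higher at 14 weeks (limma, adjusted p = 6.72e-08), Ces2a, a carboxylesterase, was 0.42 higher (adjusted p = 0.0131), Lonrf3 fell by 0.94 (adjusted p = 0.000701) and Wee1, a kinase that holds back mitosis, fell by 0.76 (adjusted p = 0.0133). Among other clock components, Csnk1e, a kinase of the PER proteins, rose by 0.61 (adjusted p = 0.00152), Cry2 rose by 0.64 (adjusted p = 0.00798) and Timeless fell by 1.06 (adjusted p = 0.00423). Arntl2 was called higher as well but read below 16 on every WT array at 5 weeks, so no size is given. Age and sex-linked signal cannot be told apart in these values, nor can any difference in the hour of harvest or any array run, which the labels do not give.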
